A study of Rattus norvegicus with 16 samples.

Results

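The 10 genes described here encode antioxidant enzymes that blood cells carry: Cat, Prdx1, Prdx2, Gpx1, Gpx4, Sod1, Sod2, Gsr, Gclc and Txnrd1. They were chosen by symbol and function, with earlier results of these data known. Each had 1 entry among the 18031 genes that were listed in every library, and all 10 passed the filter on low counts. The material was whole blood from 16 rats that received saline, and all 16 libraries belong to 1 label group, so no treated group was compared. The rats were male Sprague-Dawley animals from Charles River, 85 to 90 days old. They were given 4 injections of saline at 1 ml/kg with 2 h between injections, and had no food or water from the first injection until blood was drawn. Blood was drawn from the heart by needle 3 h after the last injection. Alpha and beta globin mRNA was depleted and polyadenylated RNA was sequenced.

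Superoxide is formed by leukocyte oxidases, by mitochondria and by the oxidation of haemoglobin. Superoxide dismutases turn it into hydrogen peroxide, which catalase, the glutathione peroxidases and the peroxiredoxins then reduce. Glutathione reductase and thioredoxin reductase recharge these systems with electrons from NADPH, and glutamate-cysteine ligase starts the synthesis of glutathione. Mature red cells make no new transcripts, so red cell messages in blood come mainly from reticulocytes, whereas neutrophils and monocytes transcribe actively and produce superoxide themselves.

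The promoters of 6 members whose transcripts were called in the fits described afterwards are shown here. Gclc was also called, on the lymphocyte level, but its window is not printed. RefSeq windows for build GRCr8 were matched for 9 of the 10 members, and Gsr was not among them. Each is the 250 bases before a listed start, on the strand of the gene. Capitals mark motif matches on either strand.
Cat (chr3:110329527-110329776, minus strand): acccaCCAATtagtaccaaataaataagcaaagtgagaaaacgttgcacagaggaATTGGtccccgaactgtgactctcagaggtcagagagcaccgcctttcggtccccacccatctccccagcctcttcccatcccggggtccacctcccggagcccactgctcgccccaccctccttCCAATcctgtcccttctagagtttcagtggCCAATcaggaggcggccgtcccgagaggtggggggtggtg
Prdx2 (chr19:40090983-40091232, minus strand): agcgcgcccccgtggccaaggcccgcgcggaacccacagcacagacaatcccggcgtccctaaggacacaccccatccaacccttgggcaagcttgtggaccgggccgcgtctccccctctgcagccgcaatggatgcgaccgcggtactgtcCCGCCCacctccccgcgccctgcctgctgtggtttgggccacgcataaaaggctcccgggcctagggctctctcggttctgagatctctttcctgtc
Gpx1 (chr8:117905212-117905461, plus strand): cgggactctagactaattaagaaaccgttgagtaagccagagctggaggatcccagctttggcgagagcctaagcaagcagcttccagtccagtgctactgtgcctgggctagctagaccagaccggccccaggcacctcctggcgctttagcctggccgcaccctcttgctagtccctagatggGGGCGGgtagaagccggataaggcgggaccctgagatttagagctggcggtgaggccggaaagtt
Gpx4, first start (chr7:10303630-10303879, minus strand): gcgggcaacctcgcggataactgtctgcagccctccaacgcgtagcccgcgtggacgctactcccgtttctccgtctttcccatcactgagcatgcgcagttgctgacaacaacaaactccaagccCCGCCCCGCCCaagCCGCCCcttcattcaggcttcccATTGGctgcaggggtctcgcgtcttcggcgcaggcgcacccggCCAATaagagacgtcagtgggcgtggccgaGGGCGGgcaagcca
Sod2 (chr1:50050169-50050418, minus strand): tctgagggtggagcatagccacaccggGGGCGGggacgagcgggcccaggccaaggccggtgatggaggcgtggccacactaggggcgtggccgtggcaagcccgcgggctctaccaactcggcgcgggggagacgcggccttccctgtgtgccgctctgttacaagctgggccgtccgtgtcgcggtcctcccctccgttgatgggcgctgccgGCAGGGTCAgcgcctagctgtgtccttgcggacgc
Txnrd1, second start (chr7:22755905-22756154, minus strand): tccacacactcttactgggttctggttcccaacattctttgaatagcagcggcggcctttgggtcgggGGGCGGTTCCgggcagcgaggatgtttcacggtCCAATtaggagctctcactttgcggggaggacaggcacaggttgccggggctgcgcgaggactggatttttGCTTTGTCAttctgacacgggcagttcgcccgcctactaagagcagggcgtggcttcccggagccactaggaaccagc

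The letters searched were AGATAA (the site bound by GATA factors, held by 10.3% of 33469 promoter windows), TGACNNNGC (the core of the antioxidant response element, 10.1%), the kappa B motif (4.53%), CCAAT (34.0%) and GGGCGG (a GC box, 30.5%). The GC box can share bases with the kappa B motif, as in the second Txnrd1 window. Over the first listed window of the 9 members, AGATAA and the kappa B motif occurred in 0, TGACNNNGC in Prdx1 and Sod2, and CCAAT in Cat, Gpx4 and Sod1. The GC box occurred in 7 of the 9, all but Cat and Txnrd1. Cat held 4 CCAAT matches, the nearest 36 bases before the start, and Gpx4 held 2. The core of the antioxidant response element lay 27 to 35 bases before the start of Sod2 and 127 to 135 bases before that of Prdx1. Gpx4 has 3 listed starts, of which the third window held the kappa B motif 136 to 145 bases before the start. Txnrd1 has 2 listed starts. The first window held none of the 5 motifs and is not printed. The second held the antioxidant response element core 70 to 78 bases before the start and the kappa B motif 173 to 182 bases before it. That second window also held CCAAT 145 to 149 bases and the GC box 177 to 182 bases before the start. A match is a description of the letters and was not tested as a binding site, and a missing match says only that these letters are not in the window.

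Levels are given as normalized counts, which are the deposited estimated counts divided by a DESeq2 size factor for each library. Transcript lengths were not used, so levels are compared between rats and not between genes. Library totals ranged from 21466776 to 31189549 counts. File names carry 6 run codes, lettered here from A to F. Controls 1 to 3 carried run code A and controls 4, 5, 7, 8 and 10 carried B. Code C was that of controls 6 and 9 and D that of controls 11 to 14, while E and F each marked a lone library, control 15 and control 16. Summed over marker lists, erythroid transcripts ranged from 228285 to 954486 normalized counts, phagocyte transcripts from 42111 to 1207045, lymphocyte transcripts from 14819 to 33936 and platelet transcripts from 9929 to 139418. Of these lists, 12 of 13, 17 of 18, 15 of 16 and 10 of 10 markers were found, and none was at 0 in every library. Control 2 stood apart with 489763 normalized counts over 12 liver markers, where control 8 followed with 29900 and the median was 78.1. Control 12 had the highest sums for fat markers, 6888 against 2910.5 in the next library, and for thymus markers, 5770 against 59.7. Control 10 had the highest sum for cardiac muscle markers, 478 against 86.8 in the next library.

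The hydrogen peroxide removers differed among rats of the same treatment, Cat more than most genes of like mean. Catalase (Cat, ENSRNOG00000008364), which splits hydrogen peroxide without a cofactor to recharge, ranged from 6258 in control 13 to 49641 in control 5, with a median of 13637 and a coefficient of variation (CV) of 67.7%. Of the 275 genes with a mean within 2-fold of that of Cat, 92% had a lower CV. Peroxiredoxin 2 (Prdx2, ENSRNOG00000003520), an abundant thiol peroxidase of the red cell, ranged from 100463 in control 11 to 501918 in control 10, with a median of 164539 and a CV of 51.8%, where 64.3% of genes near its mean had a lower one. Both genes were highest in libraries of run B and lowest in libraries of run D. Peroxiredoxin 1 (Prdx1, ENSRNOG00000017194), the related cytosolic enzyme of most nucleated cells, ranged from 847 in control 4 to 3574 in control 2, with a median of 1719 and a CV of 34.6%, where 69.2% of genes near its mean had a lower one.

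Glutathione peroxidase 1 (Gpx1, ENSRNOG00000048812) is the main cytosolic selenoenzyme that reduces hydrogen peroxide with glutathione. Its level ranged from 41319 in control 11 to 184284 in control 10, with a median of 78685 and a CV of 49.1%. Control 5 was nearly as high, at 182982. Of genes near the mean of Gpx1, 63.0% had a lower CV, and near that of Gpx4 71.4%. Glutathione peroxidase 4 (Gpx4, ENSRNOG00000013604), which reduces lipid peroxides in membranes, ranged from 3523 in control 3 to 14417 in control 10, with a median of 5555 and a CV of 46.1%.

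The dismutases did not vary alike. The mitochondrial manganese enzyme (Sod2, ENSRNOG00000019048) ranged from 5289 in control 6 to 98549 in control 8, an 18.6-fold range with a median of 12400 and a CV of 115%. Control 14 was next at 65611, followed by control 7 at 29870. Of 224 genes near its mean, 97.3% had a lower CV. The cytosolic copper and zinc enzyme (Sod1, ENSRNOG00000002115) ranged from 623 in control 11 to 2833 in control 2, with a median of 924 and a CV of 49.9%. Control 8 was next at 1358. Of 2761 genes near the mean of Sod1, 89.4% had a lower CV over all 16 libraries. Without control 2 the CV of Sod1 was 25.1%.

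Among the enzymes that sustain the thiol systems, thioredoxin reductase 1 (Txnrd1, ENSRNOG00000009088), which recharges cytosolic thioredoxin, ranged from 528 in control 3 to 7646 in control 8, a 14.5-fold range with a median of 1666 and a CV of 95.4%. Control 14 was again next, at 6812, and 97.2% of 1615 genes near the mean of Txnrd1 had a lower CV. Glutathione reductase (Gsr, ENSRNOG00000014915), which regenerates reduced glutathione, ranged from 739 in control 10 to 2099 in control 15, with a median of 1519 and a CV of 29.7%. The catalytic subunit of glutamate-cysteine ligase (Gclc, ENSRNOG00000006302) ranged from 231 in control 7 to 482 in control 2, with a median of 301 and a CV of 21.8%. It was the steadiest member, and 45.5% of 4055 genes near its mean had a lower CV. The plot of normalized counts by run shows the same values library by library.

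**Figure D1:**
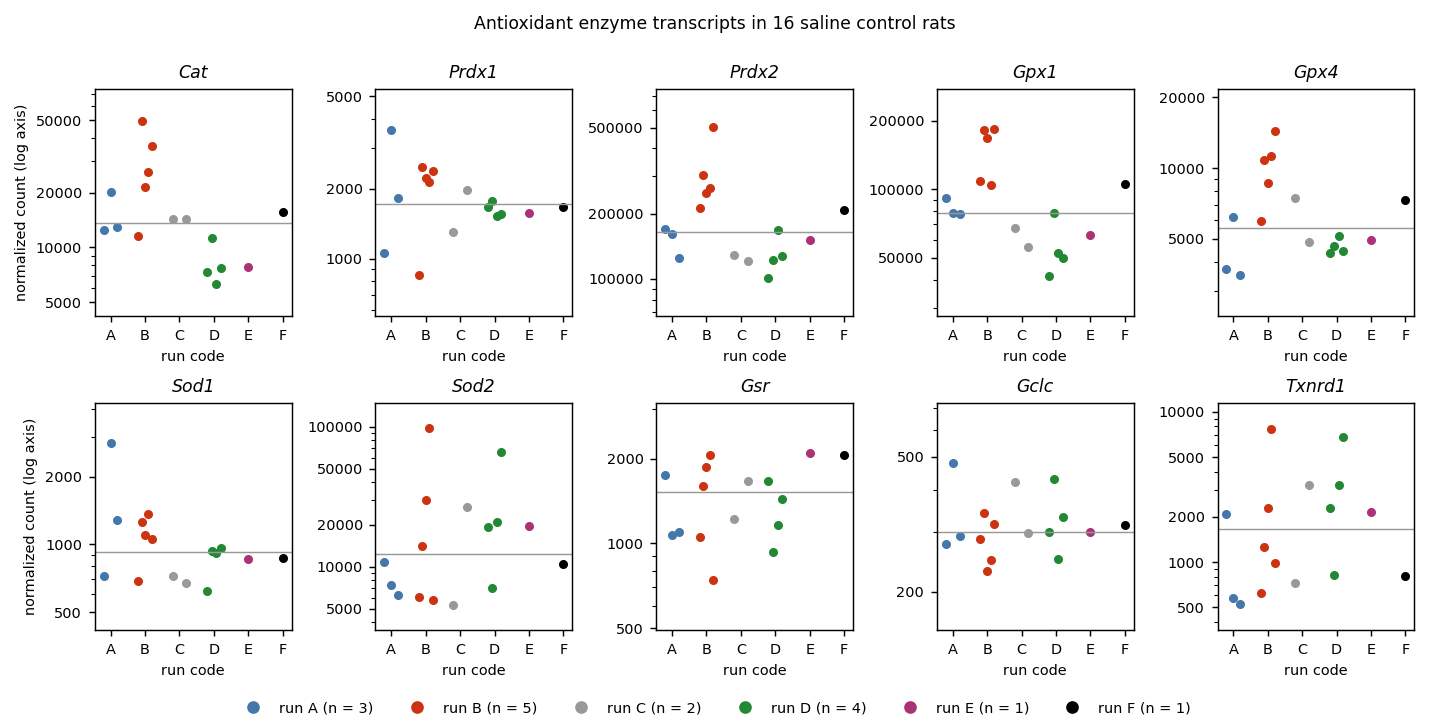
Normalized counts of the 10 antioxidant enzyme transcripts in 16 saline control rats, 1 point per library, placed by run code (A to F) on a log axis with a separate range for each gene; the grey line is the median of all 16 libraries. Cat, Prdx2, Gpx1 and Gpx4 lay higher in run B than in run D with no overlap, whereas the highest values of Sod2 and Txnrd1 were single libraries of run B (control 8) and run D (control 14).

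The run comparison asked whether the enzymes differed between libraries that carry different run codes. The labels do not say what a code marks. The paper lists control groups killed on different dates. Taken in control order, run A, runs B with C, and runs D with E and F have the sizes of all but its last group. No label ties a rat to a group, and sequencing, library preparation and separate sets of animals cannot be told apart in a code. The 4 transcripts Cat, Gpx1, Prdx2 and Gpx4 were lower in run D than in run B. The other 6 members were not called, among them Prdx1, also a peroxide remover, at -0.29 ± 0.35 on the log2 scale (SE). In the 5 libraries of run B, Cat was 11582, 21476, 25884, 35992 and 49641, and in the 4 libraries of run D it was 6258, 7364, 7724 and 11225. The runs did not overlap, but the lowest of run B (control 4) was close to the highest of run D (control 12). Cat fell by 1.82 ± 0.38 on the log2 scale (SE, adjusted p = 0.0362, edgeR quasi-likelihood test).

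Gpx1 was 104545, 109087, 167761, 182982 and 184284 in run B and 41319, 49880, 52221 and 78777 in run D. All libraries of run B were above all of run D, and the log2 fold change was -1.42 ± 0.26 (SE, edgeR adjusted p = 0.027). Prdx2 was 212167, 249389, 262756, 301785 and 501918 in run B and 100463, 122271, 127822 and 168550 in run D. Control 10 stood far above the rest of run B, and the log2 fold change was -1.22 ± 0.28 (SE, edgeR adjusted p = 0.0468). Gpx4 was 5941, 8625, 10837, 11229 and 14417 in run B and between 4366 and 5169 in the 4 libraries of run D, without overlap, and its log2 fold change was -1.11 ± 0.26 (SE, adjusted p = 0.0498 by edgeR). Of the lone libraries, control 15 (run E) lay within the range of run D for all 4 genes. Control 16 (run F) lay within that of run B for Cat, Gpx1 and Gpx4, and between the runs for Prdx2.

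Of the 10 members, 4 were called lower and 0 higher in run D than in run B, where 2.3% of the 12952 genes tested were called, 2.26% lower and 0.0386% higher. The same 4 were the members whose runs did not overlap, against 5.88% of all genes tested. The median log2 change was -0.31 over the members and 0.04 over all genes. Of 54 other antioxidant genes listed, 48 were found and 46 tested, of which 2 were lower and 0 higher. Gclm, the regulatory partner of Gclc, had a log2 fold change of -1.25 ± 0.26 (edgeR adjusted p = 0.0354), and Blvrb, the NADPH-dependent biliverdin and flavin reductase of red cells, of -1.35 ± 0.27 (edgeR adjusted p = 0.032).

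The erythroid level moved with these runs. It is the mean of log2(normalized count + 1) over 12 erythroid markers such as Alas2, Slc4a1 and Klf1, and it lay between 12.78 and 13.55 in run B and between 11.68 and 12.12 in run D, without overlap. With the erythroid level as a term beside the run code, a fit chosen after seeing the data, edgeR called 0 of 12952 genes, and the log2 change of run D against run B was -0.42 ± 0.81 for Cat, -0.37 ± 0.45 for Gpx1, -0.37 ± 0.57 for Gpx4 and 0.15 ± 0.41 for Prdx2 (SE). Run and erythroid level cannot be told apart here, and in whole blood a change in the number of cells of a type cannot be told apart from a change in the RNA per cell. The calls also depended on single libraries: without any one of controls 5, 7, 10, 11, 13 and 14 none of the 4 members was called, although the log2 change stayed between -1.91 and -1.53 for Cat, -1.40 and -1.31 for Gpx1, -1.38 and -0.97 for Prdx2 and -1.18 and -0.95 for Gpx4. With scaling to total counts, which moved the median gene from 0.04 to 0.53 on the log2 scale, 0 were called and the changes were -1.21, -0.86, -0.66 and -0.54.

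**Figure D2:**
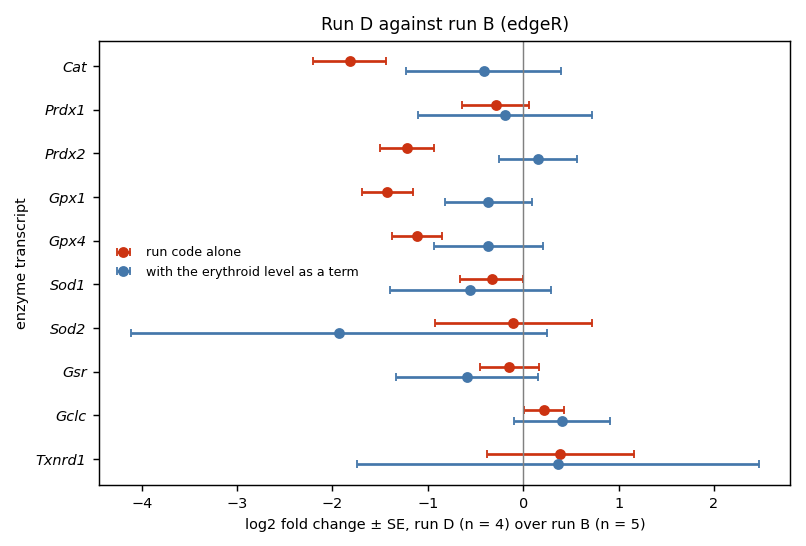
Log2 fold change of each enzyme transcript in run D (n = 4) against run B (n = 5), with bars of 1 SE, from the edgeR fit by run code alone (red) and with the erythroid level as a term (blue). Cat, Prdx2, Gpx1 and Gpx4 lay between -1.82 and -1.11 by run code alone and between -0.42 and 0.15 with the erythroid level as a term.

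Run A was compared with runs B and D in the same fit and shares its libraries with the comparison above. For run B against run A, edgeR called 0 of the 10 members and 0.0% of 12952 genes, with 4 members and 1755 genes at an unadjusted p under 0.05. The 4 were Cat, Gpx1, Gpx4 and Prdx2, with log2 changes from 0.84 to 1.17 and edgeR adjusted p from 0.116 to 0.354. DESeq2 called 563 genes, with Gpx1, Gpx4 and Prdx2 among them, and limma called 7 genes and 0 members. Prdx2 and Gpx1 did not overlap between runs B and A in CPM, against 6.42% of genes. For run D against run A, edgeR called 0 members and 0.0% of genes, with 2 members and 5.41% of genes at an unadjusted p under 0.05, where DESeq2 called 14 genes and limma 0. The 2 members were Cat, at -0.90 ± 0.41, and Sod1, at -0.91 ± 0.38 (SE, edgeR adjusted p = 0.913 and 0.871). Without controls 2 and 8 the change of Sod1 was -0.24 ± 0.30 and that of Cat -0.66 ± 0.47 (SE). Control 2, the library with the high liver markers, holds the highest Sod1 and the highest Cat of run A. Cat and Gpx1 did not overlap between runs D and A in CPM, against 7.19% of genes. In normalized counts Gpx1 did overlap, since control 12 of run D had 78777 and the lowest library of run A had 77819.

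The slope on the erythroid level asked which enzymes followed red cell transcripts from rat to rat, with all 16 libraries in 1 fit. The same 4 members rose with it. Cat changed by 1.06 ± 0.21 on the log2 scale per log2 unit of erythroid level (SE, adjusted p = 0.00277, edgeR), Gpx1 by 0.96 ± 0.15 (edgeR adjusted p = 0.000447), Prdx2 by 0.90 ± 0.13 (edgeR adjusted p = 0.000347) and Gpx4 by 0.84 ± 0.13 (edgeR adjusted p = 0.000522). A slope of 1 would mean change in proportion to the markers. The slopes of the other 6 members lay between -0.28 for Txnrd1 and 0.04 for Prdx1, none called. The slopes of Sod2 and Txnrd1 varied with the fit, from 0.01 for Sod2 and -0.28 for Txnrd1 to -1.62 and -1.51 with total counts and -1.99 and -1.10 with the run code as a term, and were called in none of these.

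A positive slope was called for 4 of 10 members and a negative one for 0, where 6.28% of the 12749 genes tested were called, 6.19% positive and 0.0941% negative. The median slope was 0.03 over the members and -0.08 over all genes. Of the 46 other antioxidant genes tested, 8 were positive and 0 negative, with a median slope of -0.05. The 4 steepest were Blvrb at 0.93, Gclm at 0.89, the iron-sulfur cluster glutaredoxin Glrx5 at 0.72 and the mitochondrial thioredoxin Txn2 at 0.72.

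These calls were lost when the run code entered the fit. With the run code as a term, edgeR called 0 of 14207 genes, and the slopes of the 4 members were 0.60 for Cat, 0.61 for Gpx1, 0.69 for Prdx2 and 0.59 for Gpx4. Without controls 10 and 5, the libraries farthest from the median erythroid level and both of run B, 0 members were called and the slopes lay between 0.71 and 0.92. With scaling to total counts 0 were called, with slopes from 0.53 to 0.86. Without any single library all 4 were called.

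**Figure D3:**
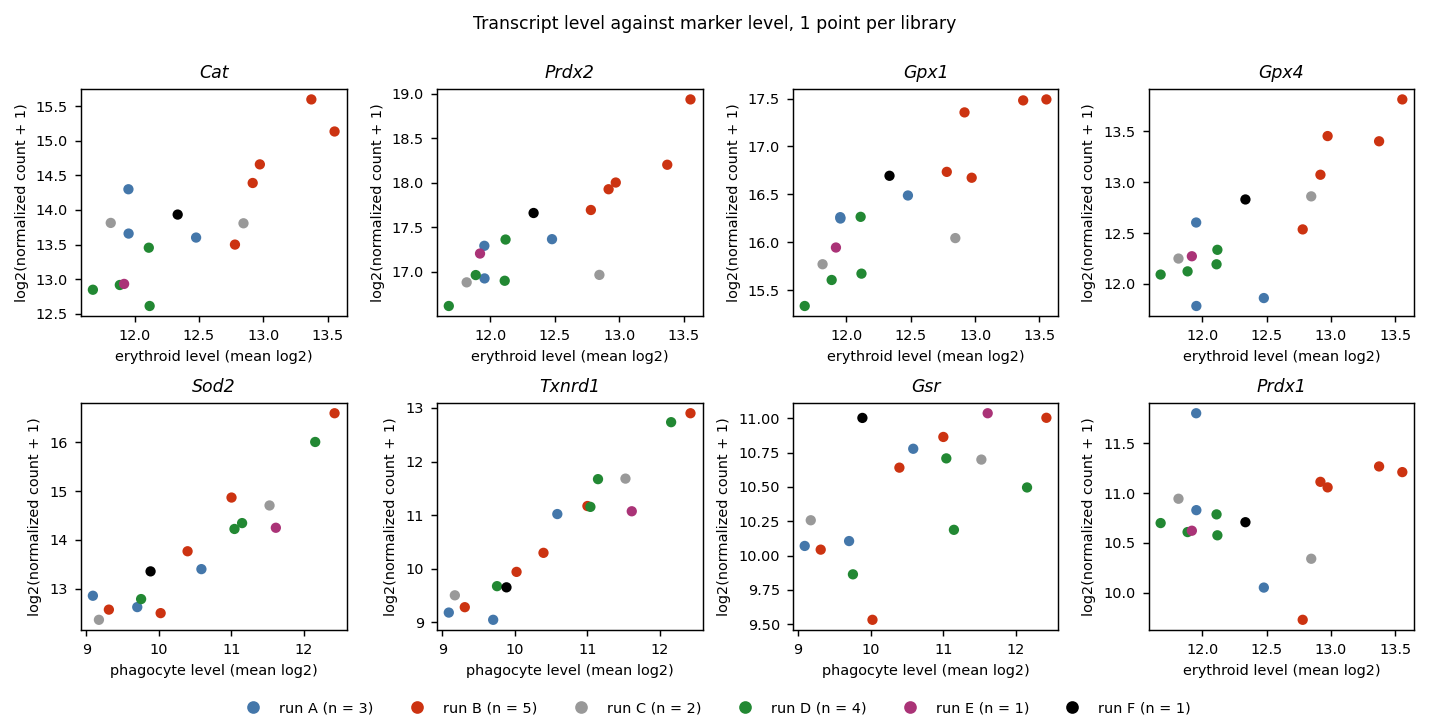
Log2(normalized count + 1) of 8 enzyme transcripts against the erythroid or phagocyte marker level (mean log2 over the markers), 1 point per library, coloured by run code. The 5 libraries of run B (red) lie at erythroid levels from 12.78 to 13.55 and include the highest value of each of Cat, Prdx2, Gpx1 and Gpx4, whereas Sod2 and Txnrd1 rise along the phagocyte level within runs as well as between them.

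The slope on the phagocyte level, the mean log2 level of 16 neutrophil and monocyte markers such as S100a8, S100a9 and Csf3r, asked the same of the leukocytes that make superoxide. Sod2 rose by 1.14 ± 0.10 per log2 unit (SE, edgeR adjusted p = 2.39e-07) and Txnrd1 by 1.13 ± 0.08 (edgeR adjusted p = 3.05e-08). Controls 8 and 14 had the highest phagocyte levels, 12.42 and 12.16, and the highest Sod2 and Txnrd1. With the run code as a term the slopes of Sod2 and Txnrd1 were 1.2 ± 0.12 and 1.16 ± 0.08. Without controls 2 and 8, the libraries with the highest liver marker sums, they were 1.14 ± 0.11 and 1.15 ± 0.10, without controls 8 and 14 they were 0.93 ± 0.13 and 1.06 ± 0.11, and both were called under each of the 25 alternatives tried. Gsr rose by 0.25 ± 0.09 (edgeR adjusted p = 0.0474), a call that was lost under 17 of 25 alternatives, with adjusted p from 0.0148 to 0.188 over all of them.

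A positive slope on the phagocyte level was called for 3 of 10 members and a negative one for 0, where 22.1% of 12745 genes were called, 13.7% positive and 8.41% negative. The median slope was -0.04 over the members and -0.04 over all genes. Cat, Gpx1, Gpx4 and Prdx2 had slopes between -0.15 and -0.0047. Of the 46 other antioxidant genes, 15 were positive and 3 negative. The largest positive slopes were those of Ggt1 (1.33), which cleaves extracellular glutathione, the mitochondrial and peroxisomal peroxiredoxin Prdx5 (1.2), Nfe2l2 (0.87), which encodes the transcription factor NRF2, and Nqo1 (0.80), a quinone reductase. The 3 negative ones were the glutathione transferase Gstm1 (-0.70), the methionine sulfoxide reductase Msrb2 (-0.39) and the sestrin Sesn1 (-0.28).

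The lymphocyte level, from 15 T and B cell markers, ran opposite to the phagocyte level over the 16 libraries. Pearson's r was -0.81 (permutation p = 5e-05, adjusted p = 0.0003 over 6 pairs of levels) and Spearman's rho was -0.83 (permutation p = 0.00012). Without the 2 libraries farthest from the median phagocyte level r was -0.76, and centred within runs it was -0.88. The lymphocyte level spanned 9.60 to 10.84, a narrower range than that of the phagocyte level, 9.09 to 12.42, so slopes on it are larger in size.

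The slope of Sod2 was -3.65 ± 0.56 per log2 unit of lymphocyte level (SE, edgeR adjusted p = 0.000745), and the slopes of Txnrd1 and Gsr were -3.54 ± 0.65 (edgeR adjusted p = 0.00153) and -1.10 ± 0.27 (edgeR adjusted p = 0.00795). Gclc rose by 0.68 ± 0.20 (edgeR adjusted p = 0.0213), the 1 member with a positive call. Of 13007 genes, 26.5% were called, 13.9% with a positive and 12.6% with a negative slope. The median slope was -0.17 over the members and 0.13 over all genes. The Gclc call was lost with the run code as a term (edgeR adjusted p = 0.113), without controls 2 and 8 (edgeR adjusted p = 0.155) and without control 7, 8 or 12 alone, and the adjusted p lay between 0.000113 and 0.155 over its 25 alternatives. Scaling to total counts moved the median slope of all genes from 0.13 to 0.55. Under it the slopes were -1.31 for Sod2, -0.97 for Txnrd1 (not called), 0.05 for Gsr (not called) and 0.80 for Gclc. With DESeq2 the slope of Sod2 was -1.54 and was not called (adjusted p = 0.107).

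Of the other antioxidant genes, 5 rose and 14 fell along the lymphocyte level. The largest falls were those of Ggt1 (-4.37), Prdx5 (-3.56), Nqo1 (-2.58) and Nfe2l2 (-2.45), and the largest rises those of Gstm1 (2.39), Msrb2 (1.57), Sesn1 (1.07) and Sepw1 (0.79), a small selenoprotein. These slopes use the same 16 libraries as those on the phagocyte level, and the part of each level in them was not tested.

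The platelet level, from 10 markers such as Pf4 and Ppbp, lay between 8.26 in control 10 and 12.40 in control 16. Gsr rose with it by 0.36 ± 0.08 per log2 unit (SE, edgeR adjusted p = 0.013), and the other 9 members were not called, where 3.11% of 13427 genes were called, 2.73% positive and 0.372% negative. Control 10 had both the lowest platelet level and the lowest Gsr. Without control 10 the Gsr slope was 0.42 and was not called (edgeR adjusted p = 0.113), nor was it with the run code as a term (0.34, edgeR adjusted p = 0.0727). Of the other antioxidant genes, 2 rose: Gstp1 (0.51), a glutathione transferase, and Ccs (0.36), the chaperone that loads copper onto SOD1.

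**Figure D4:**
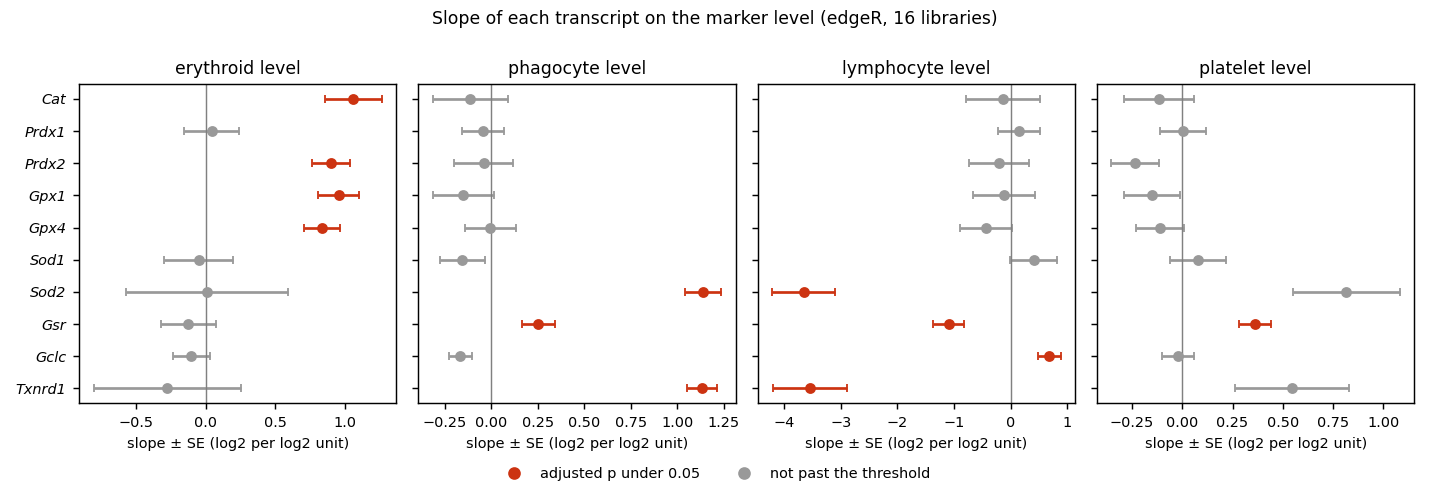
Slope of each enzyme transcript, in log2 units per log2 unit of marker level with bars of 1 SE, on the erythroid, phagocyte, lymphocyte and platelet levels of 16 libraries; each panel has its own axis, and red marks an edgeR adjusted p under 0.05. Cat, Prdx2, Gpx1 and Gpx4 are red for the erythroid level, with slopes from 0.84 to 1.06, and Sod2 and Txnrd1 for the phagocyte level (1.14 and 1.13) and, with the opposite sign, the lymphocyte level.

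Prdx1 and Sod1 were called by edgeR in none of the 4 slopes or the 3 run comparisons. For Prdx1 the slopes were 0.04 ± 0.20 on the erythroid, -0.04 ± 0.11 on the phagocyte, 0.14 ± 0.38 on the lymphocyte and 0.01 ± 0.11 on the platelet level (SE). Both genes were highest in control 2, the library with the highest liver marker sum, and Gclc was highest there too. The part of liver transcripts in these values was not tested. Without controls 2 and 8 the CV of Sod1 was 23.3%, against 49.9% over all 16 libraries.

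Pair by pair, some members varied together. Of 45 pairs, 9 were related over the 16 libraries of log2(normalized count + 1), all with positive r (permutation test of Pearson's r, Benjamini-Hochberg adjusted p under 0.05), and 10 by Spearman's rho. The weakest of the 9 had r = 0.63, a value that 6.78% of all pairs of 8374 genes with a symbol and a mean of at least 100 normalized counts reached. The median size of r was 0.275 over the 45 pairs and 0.299 over all pairs of those genes. Sod2 and Txnrd1 were the closest pair, with r = 0.94 (permutation p = 2e-05, adjusted p = 0.00045) and rho = 0.89 (permutation p = 1e-05, the smallest these permutations can give). All 6 pairs among Cat, Prdx2, Gpx1 and Gpx4 were related, with r from 0.74 for Gpx1 and Gpx4 to 0.88 for Prdx2 and Gpx1, and rho from 0.66 to 0.84. Centred within runs, r of these 6 pairs was 0.35 to 0.71, and without the 2 libraries farthest from the median it was 0.55 to 0.82. The permutations did not keep libraries within runs. Each of the 6 pairs lost its call under at least 1 of 22 alternatives. The highest adjusted permutation p ran from 0.094 for Cat and Gpx1 to 0.37 for Gpx1 and Gpx4.

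The other related pairs were Prdx1 with Sod1 (r = 0.77, permutation p = 0.0005, adjusted p = 0.0037, rho = 0.69) and Sod2 with Gsr (r = 0.63, permutation p = 0.0088, adjusted p = 0.044, rho = 0.65). For Prdx1 and Sod1, r was 0.65 without control 2, 0.61 without controls 2 and 4, and 0.83 centred within runs. For Sod2 and Gsr it was 0.69 without controls 8 and 14 and 0.80 centred within runs, but the adjusted p passed 0.05 on leaving out any one of 12 libraries. Gclc had negative r with Gsr, Sod2 and Txnrd1, -0.45 to -0.54, none of which was called (adjusted p = 0.12 to 0.25).

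**Figure D5:**
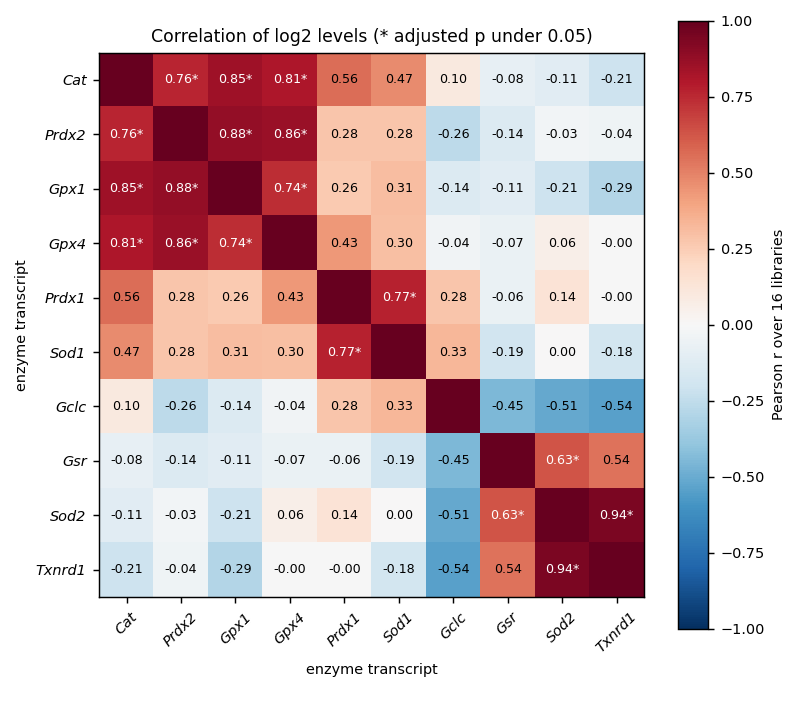
Pearson's r between log2 levels of the 10 enzyme transcripts over 16 libraries, from -1 (blue) to 1 (red), with an asterisk where the Benjamini-Hochberg adjusted permutation p over 45 pairs was under 0.05. The square of Cat, Prdx2, Gpx1 and Gpx4 holds r from 0.74 to 0.88, and Sod2 with Txnrd1 reaches 0.94.

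The genes most alike to each member among these 8374 are given by r over the 16 libraries, as a description without a test, since they share library and scaling. For Cat they were Timm23 (r = 0.94), GABARAPL2 (0.93) and Dapk2 (0.93), and for Prdx2 they were Isg20 (0.96), Dcaf12 and Psmd9 (both 0.95 to 0.96). Gpx1 was followed most closely by Creg1 (0.96), Wdr45 (0.94) and Anxa7 (0.94), and Gpx4 by Tmem134, Timm17b (both 0.97 to 0.98) and Hint1 (0.97). For Sod2 they were Azin1, Il1rn and Ltb (0.97 each), of which Il1rn encodes the interleukin 1 receptor antagonist. For Txnrd1 they were Alpl (0.98), Marcks (0.98) and Xbp1 (0.97). For Gsr they were Il3ra, Stk24 and Hexim1 (0.92 each), for Gclc Fcgrt (0.83), Rfc3 (0.81) and Aifm1 (0.80), and for Prdx1 Ndufa6, Sar1b and Mtch2 (0.91 to 0.92). For Sod1 they were Cyp2d2, a liver cytochrome, Etfb, and Pon1, a paraoxonase that liver secretes (0.91 to 0.92 each). Control 2 had the highest Sod1 and the highest liver marker sum, and its part in these values of r was not tested.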

How the data were processed

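Whole blood RNA of 16 saline control rats was measured by paired-end RNA sequencing. Per the labels and the submitters' processing notes, the authors used CASAVA 1.8.2, Bowtie 0.12.9 and RSEM 1.2.0 with rat build rn5 and Ensembl release 70, and deposited estimated counts per gene, which are not normalized. RSEM divides reads that fit several transcripts, so closely related copies can share counts. Between 19.3% and 27.1% of the deposited estimated counts of a library were not whole, and they were rounded here. Of 26405 genes in any file, the 18031 listed in every file were used; no library had under 99.9936% of its counts in them. The rule that removed genes from files was not given in the sources used here. The authors' own replacement of outlying values was not applied.

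Run codes were read from file names and used as the only split of the libraries. What they mark was not given in the sources used here. Runs with 1 or 2 libraries entered no run comparison. The share of all genes whose runs did not overlap was counted on CPM with TMM scaling. The quasi-likelihood test of edgeR 4.0.16 in R 4.3.3 was used with TMM scaling and filterByExpr, with Benjamini-Hochberg adjustment over all genes tested and a threshold of 0.05. Run comparisons used 1 fit of runs A, B and D. Slopes used all 16 libraries, and genes of the marker list itself were left out of the calls. A marker level was the mean of log2(DESeq2-normalized count + 1) over markers with a mean of at least 10. Each SE was derived from the change and its F statistic. Pairs were tested with 100000 permutations, two-sided. Alternatives were RLE and total count scaling, no filter, DESeq2 1.42.0, limma 3.58.1, run code as a term, globin entries left out, and leaving out libraries. On simulated counts for 12952 genes, run D against run B recovered 20% of genes changed 2-fold and 70% of those changed 4-fold, with 4 false calls. On simulated counts for 12761 genes, the erythroid slope had 6 false calls. It recovered 69% of genes changed 2-fold per log2 unit of erythroid level and 94% of those changed 4-fold per unit. The simulated counts were drawn for each gene on its own and held no run effect. They therefore do not measure false calls that a run effect or related genes could give.

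The smallest detectable level was taken as 3 counts, 0.0962 to 0.14 CPM, which covers counting error only. The labels do not say whether rats shared a cage, day or litter, so p-values measure the spread between these libraries. The members and lists were chosen with earlier results of these data known. The 10 members are always named. Other antioxidant genes were named where called, at most 4 in each direction of a fit by size of change, and for each member the 3 genes with the highest r. Promoters are from RefSeq, whose build differs from that of the files.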

Additional observations from a re-analysis of the deposited data

Results flagged for a closer look

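Within runs of 4 or 5 libraries, 4 of 20 comparisons of a member held a library whose gap to its nearest neighbour was a large share of the whole range of the run, where chance gives about 1 in 20. Over all genes with a symbol and a mean of at least 100 normalized counts this held for 10.0% in run B and 9.6% in run D. In run B, control 4 was lowest for Prdx1, at 847 normalized counts, with a gap of 0.793 of the range. In run D, control 11 was lowest for Sod1, at 623, with a gap of 0.847 of the range. In run B, control 8 was highest for Sod2, at 98549, with a gap of 0.741, and for Txnrd1, at 7646, with a gap of 0.761. Sod2 and Txnrd1 (r = 0.94) are not independent, and control 8 also had the highest phagocyte level of the 16 libraries, 12.42.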

How the results depend on the processing

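Sod2 and Txnrd1 were called positive on the phagocyte level in all 25 alternatives, with slopes from 0.93 to 1.22 and from 1.06 to 1.18. For run D against run B, 4 members were called, against 0 with total count scaling, 2 with no filter, 0 with the erythroid level as a term (Prdx2 then at 0.15, the opposite sign) and 1 without controls 2 and 8, the last 2 chosen after seeing the data. On leaving out 1 library the count was 0 to 4: 0 without control 5, 7, 10, 11, 13 or 14, 1 without control 3 or 12, 2 without control 1 or 8, 3 without control 2 and 4 without control 4. In all, 298 genes (2.3%) were called there, against 6 with total counts, 742 with DESeq2, 129 without controls 2 and 8, 5.44% of genes without control 4, and 2 to 95 without control 5, 7, 10, 11, 12, 13 or 14. For run B against run A, 0 members became 3 with DESeq2 and 1 without control 4 (0 to 1 over single libraries), where edgeR then called 506 genes. On the erythroid level, 4 members became 0 with total counts, with the run code as a term and without the 2 farthest libraries, controls 10 and 5; all genes called were 801, then 66, 0 and 121, and 426 without control 10. On the lymphocyte level, 4 became 2 with total counts, with Gsr at 0.052, the opposite sign. On the platelet level, 1 became 2 with DESeq2 and 0 with the run code as a term, without the 2 farthest libraries, controls 10 and 12, and without control 10 (0 to 1). Related pairs were 9, against 4 with total counts (8 to 10 over single libraries). The median CV of the members was 49.5%, against 32% with total counts (42.7 to 51.6% over single libraries). Total count scaling changed the split of calls from 789 positive and 12 negative to 54 and 12 on the erythroid level, from 1751 and 1072 to 1278 and 88 on the phagocyte level and from 1811 and 1634 to 6487 and 64 on the lymphocyte level. Calls on the phagocyte level fell from 2823 genes to 1366 with total counts, 1675 without controls 8 and 14, 1488 without controls 2 and 8 and 1872 without control 8. On the lymphocyte level they went from 3445 to 6551, 1824 without the 2 farthest libraries, 1501 without controls 2 and 8 and 2166 without control 8. On the platelet level they went from 417 to 130 without the 2 farthest libraries and 271 without control 10. The cause of these changes was not tested. Summing all entries of a symbol gave no other value, since each member has 1 entry. No paired analysis was possible because all libraries belong to 1 group. Depth did not limit the members, whose lowest rounded estimated count was 185, for Gclc in control 7. The 3 to 5 libraries per run do limit what a run comparison can detect.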
